A study of Mus musculus with 9 samples.

Results

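Integrins are the adhesion receptors with which blood-forming cells lodge in bone marrow and hold on to it, and 9 of their chains were followed here in LSK cells: Itga4, Itga5, Itga6, Itga9, Itgal, Itgam, Itgb1, Itgb2 and Itgb7. The chains were chosen by name, as alpha and beta chains outside the platelet integrin, with earlier results of these data known. Of the 9, 8 were measured among 14461 genes, and Itga9 was not analysed here. LSK cells, immature marrow cells negative for lineage markers and positive for Sca-1 and c-Kit, were sorted from the marrow of parabiotic mice, which are joined by surgery and share a circulation. RNA was sequenced in 3 libraries each of LSK cells labelled circulating (strain label C57BL/6), irradiated (C57BL/6) and endogenous (B6SJL CD45.1). The series design speaks of LSK cells that entered the marrow of an irradiated parabiont; the radiation dose, animal ages, genotypes beyond the strain and time after surgery are not stated there. In comparisons with endogenous cells the strain label changes together with the group, so strain and group cannot be told apart there. The titles of same-numbered circulating and irradiated libraries share a code (DD1, DD2 and DD3), while endogenous libraries carry another (SJ1, SJ2 and SJ3), and neither code is explained. The labels do not tell whether libraries of 1 group come from different animals; the p-values therefore reflect only how far these libraries vary, which could be technical variation.

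An integrin is a pair of 1 alpha and 1 beta chain, and the pair decides the ligand. Itgb1 pairs with Itga4 to bind VCAM-1 and fibronectin, with Itga5 to bind fibronectin and with Itga6 to bind laminins. Itga4 with Itgb1 is the best known anchor of haematopoietic progenitors on marrow stroma. Itgb7 also pairs with Itga4, for MAdCAM-1 and VCAM-1. Itgb2 is the leukocyte beta chain: with Itgal it forms LFA-1, a receptor for ICAMs, and with Itgam it forms Mac-1, a receptor of phagocytes for ICAM-1, fibrinogen and complement.

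Recovered depth ran from 14065855 to 27012345 estimated counts per library, and the 8 chains were covered by 310 to 9370 estimated counts each in any library. All values are the normalised values of the deposited table, which are proportional to estimated counts scaled by library, unless they are said to be per kilobase. Bulk libraries cannot tell fewer cells of a type from less RNA per cell. Transcripts of the sorting gate were present in all groups: Ly6a, the gene of Sca-1, averaged 137 ± 9.21 in circulating LSK, 174 ± 23.9 in irradiated LSK and 180.0 ± 12.8 in endogenous LSK (SD, n = 3 each). Kit, the gene of c-Kit, averaged 379 ± 45.1, 587 ± 31.3 and 878 ± 137 in the same order, and fell in circulating against endogenous cells (limma adjusted p = 0.0026). Ptprc, the pan-leukocyte gene of CD45, averaged 583 ± 115, 486 ± 32.1 and 589.6 ± 28.3 and was not called.

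Per kilobase of exon, the means of the 3 beta chains stood above those of the 5 measured alpha chains in all 3 groups. Itgb1 ranked first, at 80.8 ± 17.6 per kilobase in circulating, 81.2 ± 9.82 in irradiated and 84.1 ± 7.76 in endogenous LSK. In circulating cells Itgb2 (53.1 ± 22.4) and Itgb7 (40.8 ± 17.9) followed, each overlapping with the chain above it, and all 3 lay apart from the alpha chains. In irradiated cells Itgb7 (32.1 ± 5.04) and Itgb2 (26.4 ± 5.59) overlapped with each other and lay apart from Itgb1. In endogenous cells Itgb2 (28.5 ± 1.81) and Itgb7 (19.9 ± 5.58) lay apart both from Itgb1 and from each other, while Itgb7 overlapped with Itgal, the next chain.

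Itga4 and Itgal led the alpha chains in circulating cells, at 10.7 ± 1.24 and 9.66 ± 1.71 per kilobase, and in endogenous cells, at 10.5 ± 1.14 and 11.9 ± 3.37. In irradiated cells Itga5 (10.8 ± 2.41), Itga4 (10.1 ± 0.607) and Itgal (9.56 ± 1.07) overlapped. Itga6 was the lowest chain in circulating (3.63 ± 0.978) and endogenous cells (4.41 ± 1.10), and Itgam the lowest in irradiated cells (4.005 ± 1.69). The order within the alpha chains depends on the length used: over the longest transcript in place of all exons, Itga6 ranked 6 of 8 in circulating and endogenous cells and 7 in irradiated cells, while the 3 beta chains kept ranks 1 to 3.

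**Figure D1:**
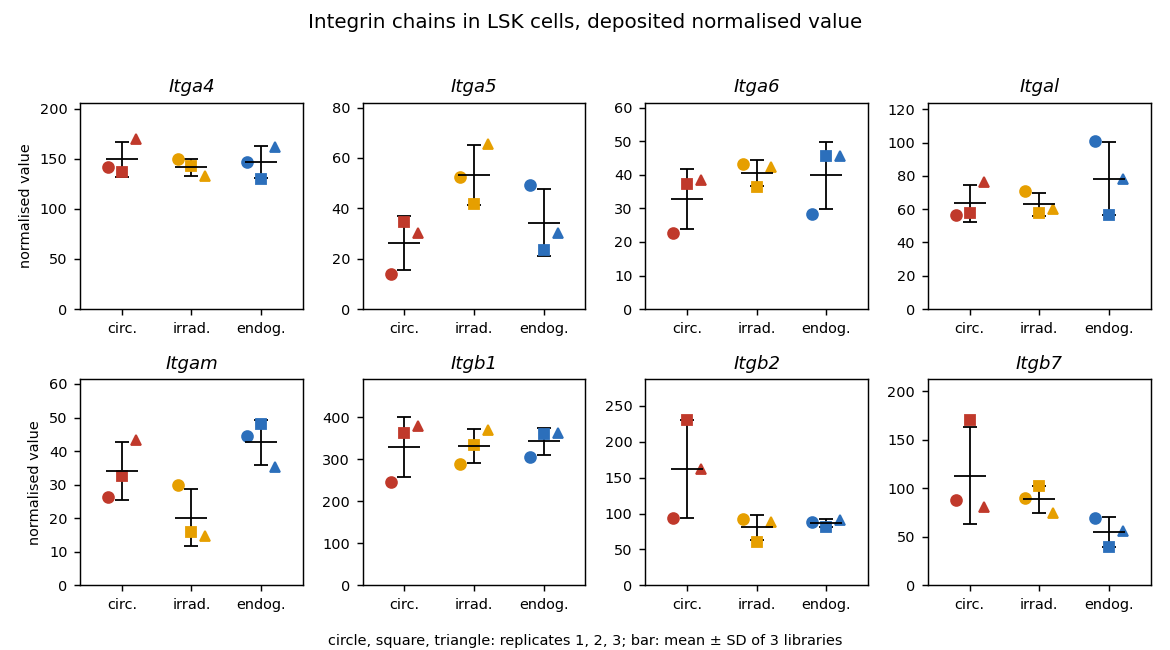
Deposited normalised value (y axis, linear, from 0) of the 8 measured integrin chains in circulating, irradiated and endogenous LSK cells. Each point is a library (circle, square and triangle for replicates 1, 2 and 3), and the bar with whiskers is the mean ± SD of 3 libraries. Itgb2 and Itgb7 spread widely in circulating cells, where replicate 2 is highest in both, and Itgam is lowest in irradiated replicates 2 and 3.

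None of the 8 chains passed the test in any comparison (limma-trend, p adjusted by Benjamini-Hochberg over 13771 genes, threshold 0.05). In circulating against irradiated cells 0 of 8 chains were called, where 0.029% of all genes tested were (0.0218% higher and 0.00726% lower). Of the 8, 3 had an unadjusted p under 0.05 (11.4% of all genes), and 2 had ranges that did not overlap between the groups (16.7% of all genes), 1 higher (7.46%) and 1 lower (9.26%). In circulating against endogenous cells 0 of 8 were called (8.63% of all genes, 5.33% higher and 3.3% lower), 2 had an unadjusted p under 0.05 (26.7%) and 2 did not overlap (27.5%), both higher (14.6%, beside 12.9% lower). In irradiated against endogenous cells 0 of 8 were called (0.603%, with 0.472% higher and 0.131% lower), 2 had an unadjusted p under 0.05 (14.9%) and 2 did not overlap (27.7%), 1 higher (15.2%) and 1 lower (12.5%). In the last 2 comparisons the share of chains that did not overlap was near that of all genes. limma voom on recovered estimated counts also called 0 chains in each comparison. The median log2 fold change of the 8 chains was 0.04 for circulating against irradiated, -0.18 for circulating against endogenous and -0.05 for irradiated against endogenous cells, beside -0.02, -0.04 and -0.01 over all genes tested. Scaling every library to the same total moved the median of all genes to -0.22 in circulating against endogenous cells and to -0.13 in irradiated against endogenous cells. Over all genes it changed the split in circulating against endogenous cells to 337 higher and 816 lower, beside 734 higher and 455 lower, and that in circulating against irradiated cells to 3 higher and 8 lower, beside 3 and 1. In irradiated against endogenous cells it was 51 higher and 27 lower, beside 65 and 18. Still 0 of the 8 chains were called under this scaling. The ranges of Itgb2 and Itgb7, apart between circulating and endogenous cells in the deposited values, overlapped under it. Those of Itgb7 in irradiated and endogenous cells overlapped under it as well.

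**Figure D2:**
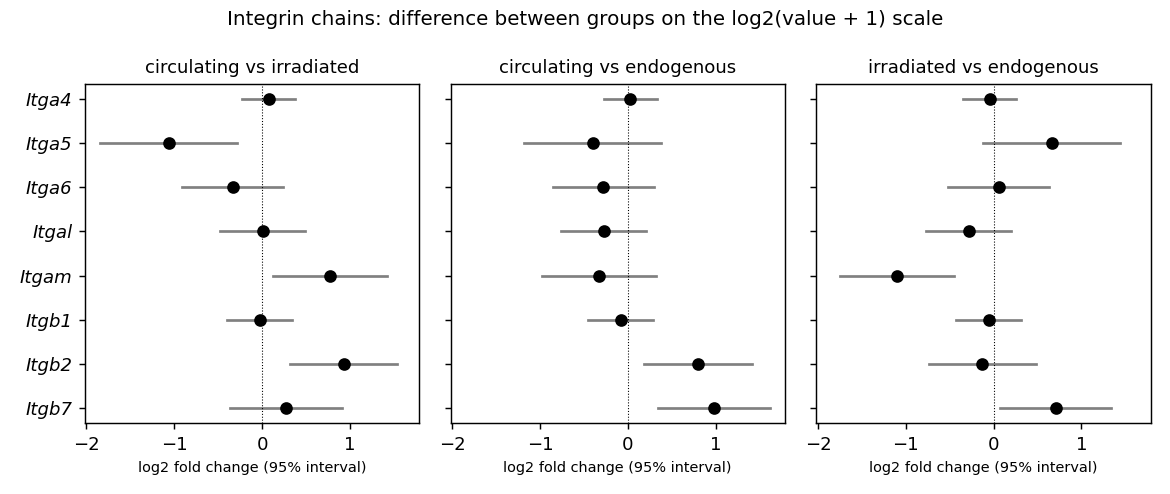
Log2 fold change on the log2(value + 1) scale (x axis) of each integrin chain with its 95% interval from limma, not adjusted for the number of genes, in the 3 comparisons; positive values mean higher in the group named first. Itgb1 and Itga4 lie close to 0 with narrow intervals in all 3 panels, and Itga5, Itgam, Itgb2 and Itgb7 lie farthest from 0.

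Itgb1 (chr8:128685654-128733200, GRCm38, plus strand), the partner of Itga4, Itga5 and Itga6, differed little between groups. It was 247, 362 and 379 in the circulating libraries, 290.0, 334 and 370.0 in the irradiated and 307, 361 and 362 in the endogenous ones. The 3 ranges overlapped throughout. The log2 fold change was -0.03 (95% interval -0.39 to 0.34) for circulating against irradiated, -0.08 (-0.45 to 0.29) for circulating against endogenous and -0.05 (-0.42 to 0.31) for irradiated against endogenous cells.

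Itga4 (chr2:79255426-79333123, plus strand), the alpha chain of the VCAM-1 receptor, had the narrowest intervals of the 8. It was 142, 137 and 169 in circulating, 149, 142 and 132 in irradiated and 147, 130.2 and 162 in endogenous libraries, with overlap between all groups. Its log2 fold change was 0.08 (95% interval -0.23 to 0.38) for circulating against irradiated, 0.03 (-0.27 to 0.33) for circulating against endogenous and -0.04 (-0.35 to 0.26) for irradiated against endogenous cells. A change of 2-fold, 1 log2 unit, lies outside each of these intervals for Itga4 and Itgb1. Cerkl, a gene on the opposite strand whose span overlaps that of Itga4, stood at 8.38 to 20.0 across the 9 libraries, and the library chemistry does not separate strands.

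Itga6 (chr2:71745616-71858416, plus strand), the laminin receptor chain, was 22.6, 37.2 and 38.5 in circulating, 43.4, 36.2 and 42.3 in irradiated and 28.3, 45.6 and 45.5 in endogenous libraries. The groups overlapped, and its intervals were wider, at -0.91 to 0.24 for circulating against irradiated, -0.85 to 0.29 for circulating against endogenous and -0.52 to 0.63 for irradiated against endogenous cells.

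Itga5 (chr15:103344286-103366763, minus strand), the chain of the fibronectin receptor, was the alpha chain with the largest difference between circulating and irradiated cells. It was 14.0, 34.6 and 30.1 in circulating, 52.5, 41.8 and 65.5 in irradiated and 49.1, 23.4 and 30.3 in endogenous libraries. Every circulating library lay under every irradiated one, while the endogenous libraries overlapped with both. The log2 fold change was -1.06 (SE 0.36, limma adjusted p = 0.32, unadjusted p = 0.012) for circulating against irradiated cells and 0.66 (SE 0.36, limma adjusted p = 0.43) for irradiated against endogenous cells. For circulating against endogenous cells it was -0.40 (SE 0.36, limma adjusted p = 0.50). The adjusted p for circulating against irradiated cells lay between 0.24 and 0.72 over the alternatives tried.

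The make-up of the Itgb1 partners was also compared as a share within each library, which no scaling of a library can move. Among Itga4, Itga5 and Itga6, per kilobase, Itga5 made up 18.3%, 33.5% and 27.2% in circulating, 40.7%, 37.4% and 48.4% in irradiated and 42.2%, 24.9% and 27.0% in endogenous libraries. Itga4 made up 65.5%, 46.8% and 53.9%, then 40.9%, 44.9% and 34.5%, then 44.5%, 48.7% and 50.9% in the same order of groups. Circulating and irradiated libraries did not overlap in either share. The Itga5 share was 15.8 percentage points lower in circulating than in irradiated cells (26.3% ± 7.61 against 42.2% ± 5.66, SD, n = 3 each, two-sided exact permutation p = 0.1, adjusted p = 0.45 over 9 tests), and 3 against 3 libraries cannot give a smaller p. The Itga6 share was 18.3% ± 1.88 in circulating, 17.7% ± 0.661 in irradiated and 20.6% ± 6.70 in endogenous LSK (SD, n = 3 each).

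**Figure D3:**
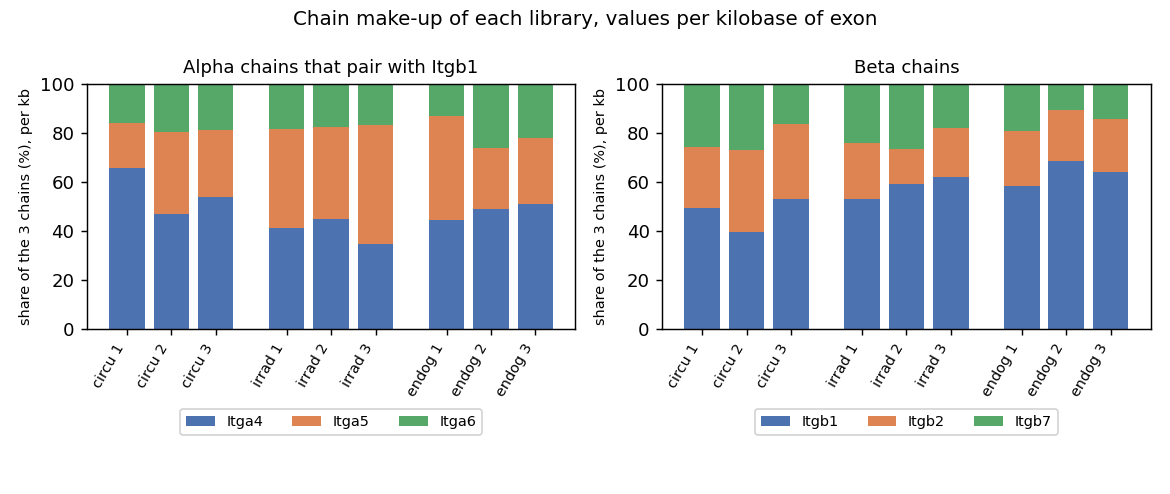
Share (y axis, percent, from 0 to 100) of each chain among Itga4, Itga5 and Itga6 (left) and among Itgb1, Itgb2 and Itgb7 (right) in each of the 9 libraries, from values per kilobase of exon; each bar is a library. The Itga5 block spans 37.4% to 48.4% in irradiated and 18.3% to 33.5% in circulating libraries, and the Itgb1 block is smallest in circulating replicate 2, at 39.3%.

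Itgb2 (chr10:77530252-77565708, plus strand), the leukocyte beta chain, was higher in every circulating library than in any other library. It was 93.5, 230.4 and 162 in circulating, 92.3, 61.0 and 88.6 in irradiated and 88.0, 80.8 and 91.7 in endogenous libraries. The distance is small in circulating replicate 1 and large in replicates 2 and 3. The log2 fold change was 0.93 (SE 0.28, limma adjusted p = 0.30, unadjusted p = 0.0066) for circulating against irradiated cells and 0.80 (SE 0.28, limma adjusted p = 0.098, unadjusted p = 0.015) for circulating against endogenous cells. For irradiated against endogenous cells it was -0.13 (SE 0.28, limma adjusted p = 0.88). Without circulating replicate 1, Itgb2 was called in both comparisons of circulating cells, at 1.27 (limma adjusted p = 0.038) against irradiated and 1.15 (limma adjusted p = 0.0077) against endogenous cells. Over the other alternatives tried it was not called, and its adjusted p reached 0.77 against irradiated and 0.23 against endogenous cells.

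Set against Itgb1 within each library, Itgb2 per kilobase was 50.5%, 85.0% and 57.3% of Itgb1 in circulating, 42.6%, 24.4% and 32.0% in irradiated and 38.4%, 30.0% and 33.8% in endogenous libraries. The lowest circulating library lay above the highest of the others in this ratio too, which was not tested. The separation from endogenous cells nevertheless depended on the scaling. Deposited values summed to 1007640 in circulating replicate 1 and to 913996 in endogenous replicate 3. With the same total in every library, Itgb2 in circulating replicate 1 no longer lay above that in endogenous replicate 3.

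Its partner Itgal (chr7:127296260-127335138, plus strand), the alpha chain of LFA-1, showed no such separation. Itgal was 56.5, 57.4 and 76.4 in circulating, 70.8, 57.7 and 59.9 in irradiated and 101, 56.4 and 78.2 in endogenous libraries, with overlap between all groups. The log2 fold change was 0.01 (95% interval -0.48 to 0.49) for circulating against irradiated, -0.28 (-0.76 to 0.21) for circulating against endogenous and -0.28 (-0.76 to 0.20) for irradiated against endogenous cells.

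Itgam (chr7:128062640-128118491, plus strand), the alpha chain of Mac-1 and a marker of mature myeloid cells, was lowest in irradiated cells. It was 26.4, 32.5 and 43.3 in circulating, 29.9, 15.8 and 14.6 in irradiated and 44.4, 48.2 and 35.2 in endogenous libraries. Irradiated libraries lay under all endogenous ones and overlapped with the circulating ones through replicate 1. The log2 fold change was -1.10 (SE 0.30, limma adjusted p = 0.12, unadjusted p = 0.0032) for irradiated against endogenous cells. It was 0.77 (SE 0.30, limma adjusted p = 0.37) for circulating against irradiated and -0.33 (SE 0.30, limma adjusted p = 0.51) for circulating against endogenous cells. For irradiated against endogenous cells Itgam was called when libraries were weighted by their spread (-1.09, limma adjusted p = 0.037) and when only these 2 groups were fitted (-1.10, limma adjusted p = 0.044), and its adjusted p lay between 0.037 and 0.41 over all alternatives. Between the 2 alpha partners of Itgb2, Itgam made up 37.9%, 42.6% and 42.5% of their sum per kilobase in circulating, 35.6%, 26.3% and 24.2% in irradiated and 36.6%, 52.8% and 37.1% in endogenous libraries. The irradiated libraries had the 3 lowest shares, which were not tested.

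Itgam overlaps with Gm49368, a gene annotated as protein-coding on the same strand, so the split of reads between them is uncertain. Gm49368 stood at 2.49 to 5.07 in the 9 libraries, and the sum of the 2 genes was 29.7, 35.7 and 47.8 in circulating, 34.6, 19.4 and 17.1 in irradiated and 47.8, 52.3 and 40.3 in endogenous libraries. Irradiated libraries lay under all endogenous ones in the sum as well (log2 fold change -1.01, limma adjusted p = 0.13).

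Markers of neutrophils, a cell type that bears Itgam, were detected in all groups. Their summed value over 10 genes ranged from 1168 to 1854 in circulating, 833 to 2021 in irradiated and 1129 to 2329 in endogenous libraries. Ly6g, the defining surface marker, was 10.6 to 14.8 in circulating, 13.3 to 16.7 in irradiated and 18.6 to 24.6 in endogenous libraries. Of the 10 genes, 2 fell (3.3% of all genes) and 8 were not called in circulating against endogenous cells, where 4 had an unadjusted p under 0.05 (26.7%). In circulating against irradiated cells 0 were called (0.029%) and 2 had an unadjusted p under 0.05 (11.4%). In irradiated against endogenous cells 0 were called (0.603%) and 1 had an unadjusted p under 0.05 (14.9%). The part of neutrophils in the Itgam values was not tested.

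Itgb7 (chr15:102215995-102231944, minus strand), the other beta partner of Itga4, was higher in every circulating and every irradiated library than in any endogenous one. It was 88.2, 170.3 and 80.8 in circulating, 90.4, 102 and 74.2 in irradiated and 69.8, 39.0 and 56.4 in endogenous libraries. Circulating and irradiated libraries overlapped. The log2 fold change was 0.98 (SE 0.29, limma adjusted p = 0.058, unadjusted p = 0.0057) for circulating against endogenous and 0.71 (SE 0.29, limma adjusted p = 0.28, unadjusted p = 0.032) for irradiated against endogenous cells. For circulating against irradiated cells it was 0.27 (95% interval -0.36 to 0.91). The comparisons with endogenous cells share those libraries. Without circulating replicate 1 the difference between circulating and endogenous cells was called (1.12, limma adjusted p = 0.040), and over the other alternatives tried its adjusted p reached 0.18.

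Within each library, Itgb7 per kilobase was 52.5%, 69.2% and 31.4% of Itgb1 in circulating, 45.9%, 45.0% and 29.5% in irradiated and 33.5%, 15.9% and 22.9% in endogenous libraries. In this ratio circulating replicate 3 and irradiated replicate 3 overlapped with endogenous replicate 1, so the separation seen in the normalised values did not carry over. Among the 3 beta chains Itgb1 made up 47.2% ± 7.05 in circulating, 58.0% ± 4.52 in irradiated and 63.5% ± 5.19 in endogenous LSK (SD, n = 3 each).

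The promoters of Itgam and Itgb7 are shown because these chains stood farthest from 0 in the comparisons with endogenous cells. Windows were available for 6 of the 9 chains (RefSeq, GRCm38.p6, 250 bases before to 50 after the gene's start). They are written in the direction of transcription, and capitals mark GAGGAA, the purine-rich core bound by the myeloid factor PU.1, or TTCCTC, the same core on the other strand.
Itgam, chr7:128062390-128062689, plus strand: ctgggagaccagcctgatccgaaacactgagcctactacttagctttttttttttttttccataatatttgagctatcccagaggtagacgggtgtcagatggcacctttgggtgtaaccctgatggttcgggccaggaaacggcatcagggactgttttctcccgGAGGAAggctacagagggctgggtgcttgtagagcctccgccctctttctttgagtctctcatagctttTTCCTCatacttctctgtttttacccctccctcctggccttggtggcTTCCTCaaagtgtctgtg
Itgb7, chr15:102231886-102232185, minus strand: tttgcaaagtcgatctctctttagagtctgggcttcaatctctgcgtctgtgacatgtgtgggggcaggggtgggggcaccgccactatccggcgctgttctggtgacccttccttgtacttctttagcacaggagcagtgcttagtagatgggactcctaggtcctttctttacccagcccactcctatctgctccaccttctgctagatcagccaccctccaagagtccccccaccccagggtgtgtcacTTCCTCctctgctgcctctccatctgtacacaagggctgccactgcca
The core occurred 3 times in the Itgam window and 1 time each in those of Itgb7, Itga5 and Itgb1, and 28.3% of all 32851 promoter windows hold it on either strand. TGTGGT, the core of RUNX factors, occurred in the Itga4 window among the 6 and in 16.8% of all windows. A match is a description of these letters and not a binding site.

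Of the other integrin chains, 10 of 17 listed were tested. In circulating against irradiated cells 0 were called (0.029% of all genes) and 2 had an unadjusted p under 0.05 (11.4%). These counts were 0 (8.63%) and 1 (26.7%) in circulating against endogenous cells. In irradiated against endogenous cells they were 0 (0.603%) and 1 (14.9%). The median log2 fold change of these chains was 0.17, 0.02 and -0.29 in the same order. Those with the highest mean were Itga2b, the platelet integrin chain, and Itgav, the vitronectin receptor chain. Itga2b averaged 57.9 ± 36.7 in circulating LSK, 89.0 ± 31.5 in irradiated LSK and 49.7 ± 12.7 in endogenous LSK, and Itgav averaged 16.0 ± 10.99, 11.5 ± 1.19 and 12.5 ± 3.76. Itgax, a further alpha partner of Itgb2 on dendritic cells, was 0.113, 30.5 and 3.88 in the circulating libraries, against 1.09 to 1.89 in irradiated and 2.02 to 3.99 in endogenous ones, so its high value was that of circulating replicate 2, in which Itgb2 and Itgb7 were also highest.

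Integrins are switched on from inside the cell by talin, kindlin and Rap1 and are tied to actin by adaptor proteins. Of 37 such genes listed, 34 were tested: 0 rose, 2 fell and 32 were not called in circulating against endogenous cells, where 8.63% of all genes were called, 5.33% higher and 3.3% lower. An unadjusted p under 0.05 was found there for 10 of the 34 (26.7% of all genes). In the other comparisons 0 were called, with 4 (circulating against irradiated, 11.4% of all genes) and 7 (irradiated against endogenous, 14.9%) at an unadjusted p under 0.05. Zyx, which encodes the focal adhesion protein zyxin, was 220, 247 and 176 in circulating, 269, 259 and 251 in irradiated and 391, 338 and 318 in endogenous libraries. It fell in circulating against endogenous cells (-0.71 on the log2 scale, SE 0.14, limma adjusted p = 0.016). Ptk2b, which encodes the adhesion kinase PYK2, was 38.2, 58.1 and 44.4 in circulating, 83.7, 71.3 and 63.3 in irradiated and 96.1, 95.7 and 81.4 in endogenous libraries, and fell as well (-0.96, SE 0.19, limma adjusted p = 0.016). The calls of both genes ended without endogenous replicate 1 or 2 and in a fit of the 2 groups alone, with a highest adjusted p of 0.069 for Zyx and 0.063 for Ptk2b over all alternatives. Of the genes not called, the highest means were those of the actin-regulating GTPases Cdc42 and Rac2. Cdc42 averaged 1147.5 ± 81.2 in circulating LSK, 1145.6 ± 38.5 in irradiated LSK and 1070.2 ± 138 in endogenous LSK, and Rac2 averaged 740.4 ± 72.9, 692 ± 11.3 and 591 ± 26.5. The median log2 fold change of the list was -0.01 for circulating against irradiated, 0.02 for circulating against endogenous and 0.07 for irradiated against endogenous cells.

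Ligands of integrins were measured in the LSK cells themselves, for 12 of 24 listed genes. In circulating against endogenous cells 1 rose, 1 fell and 10 were not called (8.63% of all genes called), and 6 had an unadjusted p under 0.05 (26.7%). In circulating against irradiated cells 0 were called (0.029%) and 3 had an unadjusted p under 0.05 (11.4%). In irradiated against endogenous cells 0 were called (0.603%) and 3 had an unadjusted p under 0.05 (14.9%). Icam2, a ligand of LFA-1, was 74.7, 90.0 and 102 in circulating, 93.3, 72.2 and 89.9 in irradiated and 55.9, 41.7 and 58.7 in endogenous libraries (0.76 on the log2 scale, SE 0.19, limma adjusted p = 0.034 for circulating against endogenous cells). F11r, which encodes the junctional ligand JAM-A, was 19.2, 21.3 and 14.98 in circulating, 32.8, 27.1 and 28.3 in irradiated and 46.6, 42.9 and 27.4 in endogenous libraries (-1.02, SE 0.25, limma adjusted p = 0.034). The call of Icam2 ended when any of 7 of the 9 libraries was left out (all but circulating replicate 1 and irradiated replicate 2), and that of F11r for 6 of them (all but circulating replicates 1 and 2 and endogenous replicate 3). Both also ended with sample weights and in a fit of the 2 groups alone, that of Icam2 with the same total in every library and that of F11r with voom (adjusted p up to 0.10 for Icam2 and 0.13 for F11r). Vcam1, the main ligand of Itga4, was 32.5, 131.6 and 79.4 in circulating, 31.8, 31.1 and 39.2 in irradiated and 34.6, 33.4 and 28.5 in endogenous libraries, and was not called (limma adjusted p = 0.10 for circulating against endogenous cells). As with Itgb2, circulating replicates 2 and 3 were high and replicate 1 was not. Vcam1 was named after its values were seen. Emilin1, a matrix ligand of Itga4 and Itga9, had the highest mean of the list, at 120.0 ± 28.3 in circulating LSK, 155 ± 14.99 in irradiated LSK and 109.8 ± 66.7 in endogenous LSK, and was not called. Over the ligands the median log2 fold change was -0.30 for circulating against irradiated, -0.56 for circulating against endogenous and -0.14 for irradiated against endogenous cells.

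Other adhesion and homing receptors were tested for 22 of 24 listed genes. In circulating against endogenous cells 3 rose (5.33% of all genes), 2 fell (3.3%) and 17 were not called. In circulating against irradiated cells 1 rose (0.0218%) and 1 fell (0.00726%), and in irradiated against endogenous cells 1 rose (0.472%) and 1 fell (0.131%). The median log2 fold changes were -0.14 for circulating against irradiated, -0.32 for circulating against endogenous and -0.11 for irradiated against endogenous cells. Cxcr4, the receptor for the marrow chemokine CXCL12, was 65.8, 57.8 and 64.8 in circulating, 9.86, 14.5 and 8.54 in irradiated and 47.0, 44.2 and 50.8 in endogenous libraries. It rose in circulating against irradiated cells (2.44 on the log2 scale, SE 0.22, limma adjusted p = 0.00096) and fell in irradiated against endogenous cells (-2.04, SE 0.22, limma adjusted p = 0.0043). Adgrg1, an adhesion G protein-coupled receptor of stem cells, was 646, 711 and 524 in circulating, 1187, 1215 and 1241 in irradiated and 1613, 1532 and 1282 in endogenous libraries. It fell in circulating cells against endogenous (-1.24, SE 0.13, limma adjusted p = 0.0014) and against irradiated cells (-0.96, SE 0.13, limma adjusted p = 0.030).

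The calls of Cxcr4 between irradiated and endogenous cells and of Adgrg1 between circulating and endogenous cells held under all 16 alternatives. That of Cxcr4 between circulating and irradiated cells held under 16 of 17, and ended when these 2 groups alone were fitted with the replicate number as a block (2.44, limma adjusted p = 0.099). That of Adgrg1 between circulating and irradiated cells ended without any single irradiated library, without endogenous replicate 1 or 2 and in a fit of the 2 groups alone, with adjusted p up to 0.25, and also with that block (-0.96, limma adjusted p = 0.13). Ccr2, a chemokine receptor of monocytes and their progenitors, was 93.2, 344 and 117 in circulating, 54.6, 41.1 and 50.3 in irradiated and 33.0, 22.5 and 26.6 in endogenous libraries (2.48, SE 0.39, limma adjusted p = 0.0079 for circulating against endogenous cells), and its call held under all 16 alternatives.

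Selplg, which encodes the selectin ligand PSGL-1, averaged 455 ± 40.0 in circulating LSK, 365 ± 32.6 in irradiated LSK and 330.1 ± 35.7 in endogenous LSK, and Pecam1, an adhesion molecule of endothelium and leukocytes, averaged 77.9 ± 4.11, 105 ± 5.88 and 111 ± 9.43. Both were called in circulating against endogenous cells (limma adjusted p = 0.043 each). Those calls ended when any of 8 of the 9 libraries was left out for Selplg (all but circulating replicate 1) and any of the 9 for Pecam1. Both also ended with the replicate block, with sample weights and in a fit of the 2 groups alone, that of Selplg with the same total in every library and that of Pecam1 with voom (adjusted p up to 0.20 for Selplg and 0.12 for Pecam1). Selp, which encodes P-selectin, was 39.4, 60.5 and 21.0 in circulating, 119, 123 and 147 in irradiated and 17.0, 24.6 and 28.4 in endogenous libraries. It rose in irradiated against endogenous cells (2.45, SE 0.33, limma adjusted p = 0.010), and this call ended without irradiated replicate 1 or 3 or endogenous replicate 1 or 2 (adjusted p up to 0.080).

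**Figure D4:**
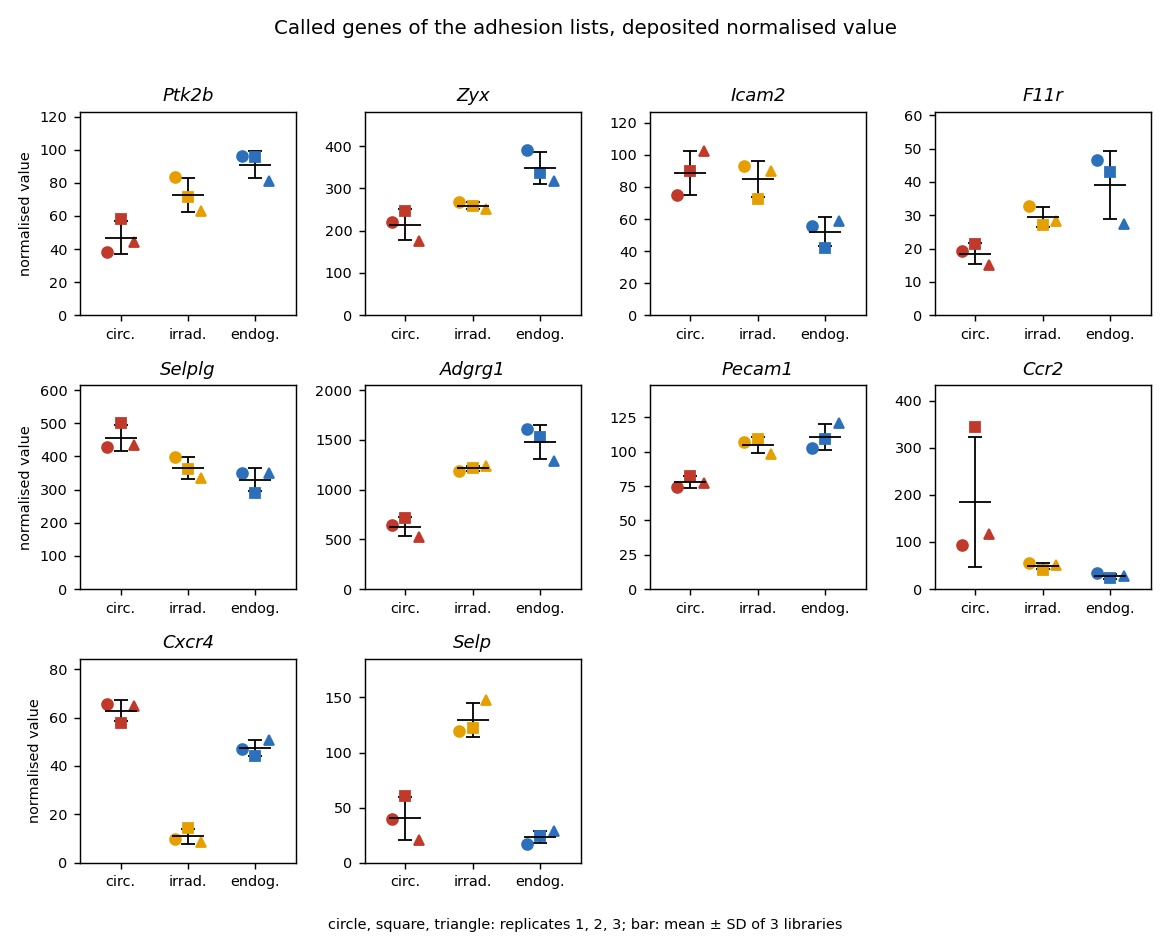
Deposited normalised value (y axis, linear, from 0) of 10 genes of the adaptor, ligand and homing lists that were called in a comparison. Points are libraries (circle, square and triangle for replicates 1, 2 and 3) and bars the mean ± SD of 3 libraries; Cxcr4 is at 8.54 to 14.5 in irradiated libraries and at 44.2 or more in all others, and Adgrg1 is lowest in circulating libraries.

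Markers of other cell types were counted beside these chains. The summed value of 9 monocyte and macrophage markers was 682, 1542 and 2405 in circulating, 1007, 478 and 1025 in irradiated and 371, 236 and 276 in endogenous libraries. In circulating against endogenous cells 2 of these 9 rose (5.33% of all genes) and 0 fell (3.3%), and 5 had an unadjusted p under 0.05 (26.7%). In circulating against irradiated cells 0 were called (0.029%) and 2 had an unadjusted p under 0.05 (11.4%). In irradiated against endogenous cells 0 were called (0.603%) and 3 had an unadjusted p under 0.05 (14.9%). Adgre1, the macrophage marker F4/80, was 9.29, 16.3 and 7.39 in circulating, 0.741, 4.34 and 3.22 in irradiated and 3.37, 0.728 and 4.04 in endogenous libraries. Every circulating library lay above all others, and it was not called (limma adjusted p = 0.30 against irradiated and 0.067 against endogenous cells). C1qa, another macrophage marker, was 0.832, 2.59 and 2.24 in circulating, 1.71, 1.296 and 1.06 in irradiated and 5.12, 3.90 and 4.15 in endogenous libraries, with the endogenous ones highest, and was not called either (limma adjusted p = 0.12 for circulating against endogenous cells). Mast cell and basophil markers, 7 genes, summed to 123, 618 and 999.7 in circulating, 139, 201 and 263 in irradiated and 113, 117 and 96.0 in endogenous libraries, and Cma1, a mast cell protease, was at 0.0678 in circulating replicate 1 and at 65.5 and 171 in replicates 2 and 3. Myeloid progenitor markers, 10 genes, summed to 14438, 26823 and 42100 in circulating, 14187, 9582 and 18533 in irradiated and 4405, 3509 and 3575 in endogenous libraries. Of these 10, 7 rose in circulating (5.33% of all genes) and 5 rose in irradiated (0.472%) against endogenous cells. These 3 sums, of monocyte, mast cell and myeloid progenitor markers, and Itgb2 were higher in circulating replicates 2 and 3 than in replicate 1. The 3 sums were highest in replicate 3 and Itgb2 in replicate 2, while Itgb7 was high in replicate 2 alone. Each of the 3 sums was higher in every irradiated library than in any endogenous one, while Itgb2 overlapped between these groups. A low circulating replicate 1 was not particular to these 3 lists. Erythroid markers summed to 1264, 1603 and 2261 in circulating libraries, and megakaryocyte and platelet markers to 120, 312 and 189. The T and NK sum was lowest there too, but the neutrophil, B lineage, dendritic, endothelial and sorting gate sums were not. How the sums relate to Itgb2 was not tested.

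The summed T and NK markers were 520.1, 791 and 914 in circulating, 534, 572 and 653 in irradiated and 250.03, 293 and 234 in endogenous libraries. Most of it was Nkg7, a granule gene of cytotoxic cells, which rose in circulating and in irradiated against endogenous cells (limma adjusted p = 0.0027 and 0.014). The summed dendritic markers were 959.6, 940.3 and 664 in circulating, 652, 664 and 520.0 in irradiated and 798, 954 and 1085 in endogenous libraries. This list holds Flt3, which was also counted with the sorting gate because early progenitors express it. Among circulating libraries the T and NK sum was highest in replicate 3 and the dendritic sum in replicate 1. Of the T and NK markers 1 of 7 rose and of the dendritic markers 2 of 8 rose in circulating against endogenous cells (5.33% of all genes), and 0 fell (3.3%). Single markers went both ways, and those named below were chosen after their values were seen. Cd3g was 1.11, 31.0 and 5.29 in circulating libraries, against 0.348 to 1.68 in irradiated and 1.08 to 2.59 in endogenous ones. Trac was 0.655, 30.1 and 5.64 in circulating libraries, against 0.102 to 1.505 in irradiated and 0.463 to 2.08 in endogenous ones. Xcr1, a marker of cross-presenting dendritic cells, was 24.1, 118 and 30.8 in circulating, 13.3, 11.1 and 6.62 in irradiated and 5.08, 3.82 and 8.68 in endogenous libraries. Flt3 was 766, 377 and 342 in circulating, 416, 469 and 325 in irradiated and 642, 807 and 870.0 in endogenous libraries. Ccr9 was 21.1, 4.81 and 7.96 in circulating, 8.58, 8.77 and 9.52 in irradiated and 26.2, 36.2 and 18.9 in endogenous libraries, and Cd4 was 0.206, 4.47 and 0.198, then 0.0853, 3.29 and 0.349, then 11.5, 9.95 and 4.99 in the same order of groups. Flt3, Ccr9 and Cd4 averaged lower in circulating than in endogenous cells and were not called (limma adjusted p = 0.11, 0.078 and 0.062). Siglech, a marker of plasmacytoid dendritic cells, was at 0.0628 to 0.413 in circulating, 0.143 to 0.717 in irradiated and 0.196 to 11.1 in endogenous libraries. The part of these cell types in the values of Itgb2, Itgb7, Itgax and Vcam1 was not tested. Without circulating replicate 2, the log2 fold change of Itgb2 was 0.63 for circulating against irradiated (limma adjusted p = 0.38) and 0.50 for circulating against endogenous cells (limma adjusted p = 0.23), and that of Itgb7 was 0.65 for circulating against endogenous cells (limma adjusted p = 0.12).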

How the data were processed

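The deposited table holds 14461 mouse genes in 9 columns, and its values are a normalised signal, not counts. Per the submitters' processing notes, mm10, CASAVA, RSEM 1.3.1 and limma were used, with no role or order given. Each deposited value equals an estimated count with 2 decimals plus 0.5, times a constant of its column, for 100% of values. Counts were recovered from the smallest value of each column, which stands for a count of 0 (0.0182 to 0.0376). Per the labels' protocols, the libraries combined SMART-Seq v4 cDNA with Nextera XT, which does not mark strand. Amplified reads carry no molecular tags and so are not independent, and counting intervals would cover counting error only.

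Genes with a value of at least 1 in at least 3 libraries (13771) were fitted with limma-trend (limma 3.58.1, R 4.3.3, robust) on log2(value + 1), all 9 libraries in 1 fit without covariates, and called at a Benjamini-Hochberg adjusted p under 0.05. Fold changes on this scale understate those of low genes. The fit was tested on simulated data. Symbols, lengths and overlaps came from GENCODE M21 (GRCm38); 14405 genes matched a symbol and 56 did not. Because the values are normalised, limma was used and no count model. Shares of Itga4, Itga5 and Itga6 per kilobase were compared by two-sided exact permutation tests, adjusted over 9 tests; Itga9 was not analysed here. Alternatives were log2(value + 0.5), no filter, the same total in every library, sample weights, 2 groups only, a replicate block, voom on recovered estimated counts, the longest transcript for shares, and each library left out. Itgam summed with Gm49368, the replicate block in circulating and irradiated libraries only and the alternatives for genes of the other lists were added after the data were seen. The members and lists were chosen with earlier results of these data known. Named genes were all members, of each list the called ones, up to 6 per comparison, or the 2 highest where fewer were called, and gate markers. Of the homing list, 1 called gene is counted but not reported here.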

Additional observations from a re-analysis of the deposited data

How the results depend on the processing

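In each comparison 0 of the 8 chains were called with log2(value + 0.5), no filter, the same total in every library, the replicate block, voom on recovered counts and Itgam summed with Gm49368. Sample weights and a fit of 2 groups only each called 1 chain, Itgam, in irradiated against endogenous cells. Over all genes, circulating against irradiated cells gave 11 calls with the same total, 9 with the replicate block and 8 with voom, beside 4. Circulating against endogenous cells gave 494 with sample weights and 252 with 2 groups only, beside 1189, and irradiated against endogenous cells gave 897 and 781, beside 83. The cause was not tested. The replicate block gave 1147 and 105 calls in the comparisons with endogenous cells. Titles share a code between same-numbered circulating and irradiated libraries, but no label says what it marks. Correlations of same-numbered deviations were 0.05, 0.03 and 0.18 between these groups and -0.02 to 0.08 in the comparisons with endogenous cells, and not every sample correlated best with its own number, so whether the numbers pair the samples is not known. The replicate block with circulating and irradiated libraries only, chosen after seeing the data, called 0 chains and 2 genes in all, beside 4. Leaving out 1 library at a time gave 0 to 1 called chains for circulating against irradiated, 0 to 2 for circulating against endogenous and 0 for irradiated against endogenous cells. Over all genes it gave 3 to 134, 262 to 2230 and 6 to 265 calls; the highest counts were without circulating replicate 1 in all 3, and the lowest were without endogenous replicate 1 in all 3, equalled without irradiated replicate 3 in both comparisons of irradiated cells.
With the same total, differences that were not called changed sign for Itgal (-0.061, circulating against irradiated), Itga4 (-0.17, circulating against endogenous) and Itga6 (-0.075, irradiated against endogenous). Leaving out a library did so for circulating against irradiated cells in Itga4 (-0.017 to 0.13), Itgal (-0.13 to 0.095), Itgb1 (-0.14 to 0.17) and Itgb7 (-0.061 to 0.47), for circulating against endogenous cells in Itga4 (-0.062 to 0.11) and Itgb1 (-0.19 to 0.11), and for irradiated against endogenous cells in Itga4 (-0.13 to 0.031), Itga6 (-0.17 to 0.17), Itgb1 (-0.14 to 0.038) and Itgb2 (-0.23 to 0.059). The Itga6 share difference between circulating and irradiated cells was -0.17 percentage points over the longest transcript and -0.18 to 1.60 with a library left out. With a library left out, the Itga5 share difference between circulating and endogenous cells was -8.59 to 0.42 points, and that of Itga6 was -6.03 to 0.55 points there and -6.56 to 0.014 points between irradiated and endogenous cells. No chain changed sign in a comparison where an alternative called it.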
